A study of Mus musculus with 6 samples.

Results

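The 10 genes described here carry the Wnt and catenin pathway from the cell surface to DNA. They are the co-receptor gene Lrp6, the destruction complex genes Axin1, Axin2 and Apc, the catenin genes Ctnnb1 and Jup, and the 4 members of the LEF/TCF family, Lef1, Tcf7, Tcf7l1 and Tcf7l2. They were taken by symbol from a table of 55421 mouse genes, and all 10 were present and had enough counts to be tested. In AE9a-Ddit4-/- leukemia cells Jup, Lef1, Tcf7, Tcf7l1, Apc and Lrp6 were higher than in AE9a-Ddit4+/+ cells, and the change of Ctnnb1 missed the threshold.

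In canonical Wnt signaling, beta-catenin (Ctnnb1) is held at a low level by a destruction complex that is built on Axin and Apc and marks it for degradation. Wnt ligands bind Frizzled receptors and Lrp5 or Lrp6, which blocks this complex, so that beta-catenin enters the nucleus and acts with LEF/TCF proteins on target genes such as Axin2. Gamma-catenin (plakoglobin, Jup) is a close relative of beta-catenin that also sits in cell junctions. AML1-ETO fusion proteins are known to raise plakoglobin in leukemia cells, and Tcf7 and Lef1 are known above all for their part in T cell development.

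All 6 libraries came from C57BL/6 bone marrow leukemia cells that expressed AE9a, a truncated AML1-ETO fusion, from a retrovirus marked with GFP. The virus had been put into c-Kit+ hematopoietic stem and progenitor cells of young adult Ddit4+/+ or Ddit4-/- donors. The cells were transplanted into irradiated recipients, whose own blood cells may not have been fully removed. Leukemia cells were kept in IMDM with serum. The groups were AE9a-Ddit4+/+ (3 libraries) and AE9a-Ddit4-/- (3 libraries), so both carry AE9a and differ in Ddit4, the gene of a stress-induced inhibitor of mTOR signaling. The study describes the cells as taken from the marrow of several transplanted mice per group, as many as there are libraries. The labels tie no library to a mouse, and the sources do not say whether the cells of a group go back to separate transductions. The study reports fewer primary AE9a-Ddit4-/- recipients with leukemia, in the time observed, than there are AE9a-Ddit4-/- libraries. If the libraries go back to those recipients, some of them share a primary leukemia. The tests thus measure the spread between libraries, which may be technical.

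Library totals ranged from 62141558 to 72717681 counts. Ddit4 was at 161 to 341 CPM (counts over the TMM-scaled library total, times 1e+06) in AE9a-Ddit4+/+ and at 77.6 to 85.8 CPM in AE9a-Ddit4-/- libraries, so it was still read in the latter and differed by a log2 fold change of -1.56 (edgeR, SE 0.28, adjusted p 0.00635). Reads from the deleted part of Ddit4 could not be told from the rest, so this is a partial check of the labels. For the protein, the study reports by western blot that DDIT4 was absent from AE9a-Ddit4-/- leukemia cells. The groups also differed in the sex of the cells, with Ddx3y at 0.0589 to 0.0773 CPM in AE9a-Ddit4+/+ and 88.2 to 125 CPM in AE9a-Ddit4-/- libraries. Sex and genotype thus cannot be told apart. Xist was at 565 to 1032 CPM in AE9a-Ddit4+/+ libraries. It was still read in AE9a-Ddit4-/- libraries 1, 2 and 3, at 63.2, 20.3 and 129 CPM. The study names female recipients for several of its transplants and gives no separate statement for the recipients of these libraries. Whether these libraries mix cells of both sexes was not tested. Mitochondrial genes took 5.03 to 7.90% and 11.3 to 16.4% of the counts. The progenitor marker Kit was at 14.6 to 31.6 CPM in AE9a-Ddit4+/+ and 304 to 508 CPM in AE9a-Ddit4-/- libraries.

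Of the 10 genes, 6 were higher past the threshold (edgeR adjusted p below 0.05) and 0 were lower. Over all 18375 genes tested, 19.4% were higher, 10.7% lower and 30.1% called in either direction. Axin1 and Axin2 were lower at an unadjusted p below 0.05, and DESeq2 and limma-voom each called 1 gene lower, Axin2. Lef1, Tcf7 and Tcf7l1 passed the filter on low counts only through the AE9a-Ddit4-/- libraries, so that a count or median over the 10 genes is a description. The groups did not overlap in 8 of the 10 genes, against 50.1% of all genes tested. The median log2 fold change was 1.42 over the 10 genes and 0.04 over all genes tested. Fewer cells of a type and less RNA per cell cannot be told apart in such bulk libraries.

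**Figure D1:**
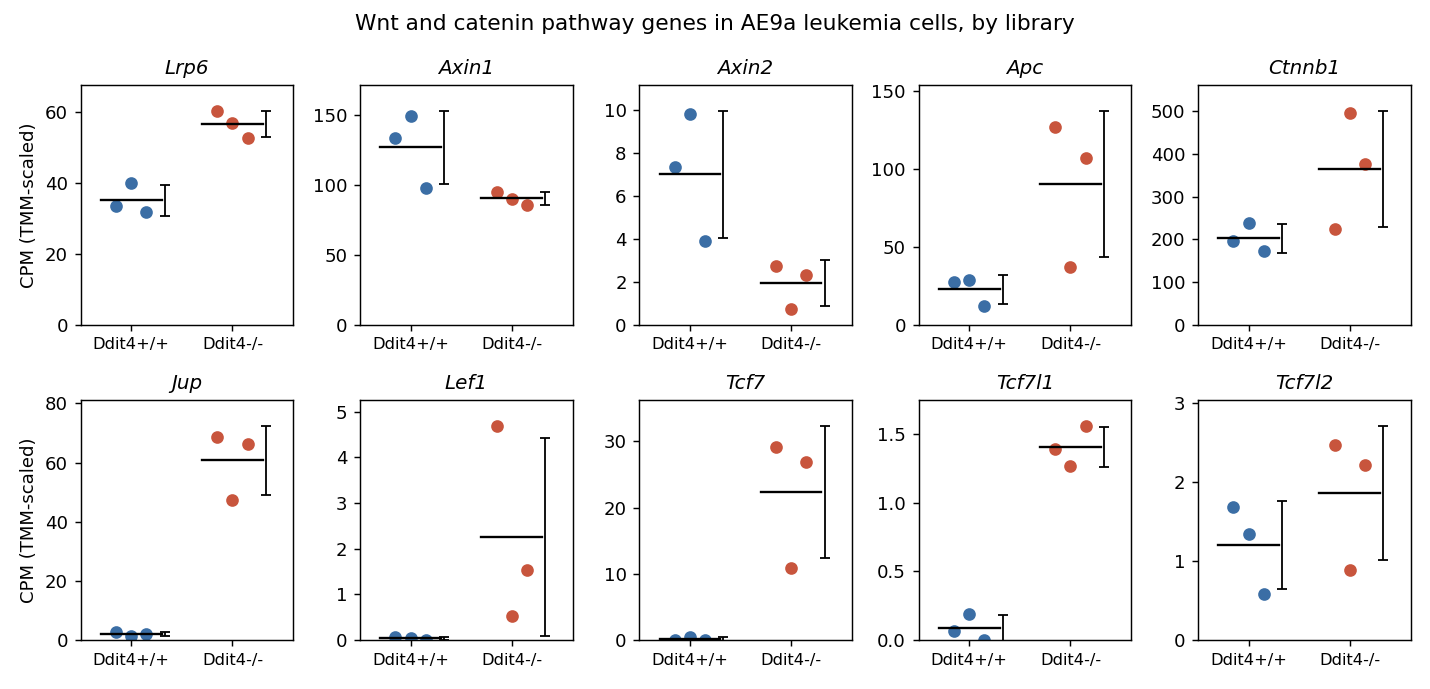
Level of each of the 10 genes in CPM (y axis, linear from 0, own scale for each gene) in the AE9a-Ddit4+/+ (blue) and AE9a-Ddit4-/- (red) libraries, with points from left to right for libraries 1 to 3, lines for the means and bars for the SD (n = 3). Jup, Lef1, Tcf7, Tcf7l1, Apc and Lrp6 lie higher in all 3 AE9a-Ddit4-/- libraries, Axin1 and Axin2 lie lower, and Ctnnb1 and Tcf7l2 overlap.

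**Figure D2:**
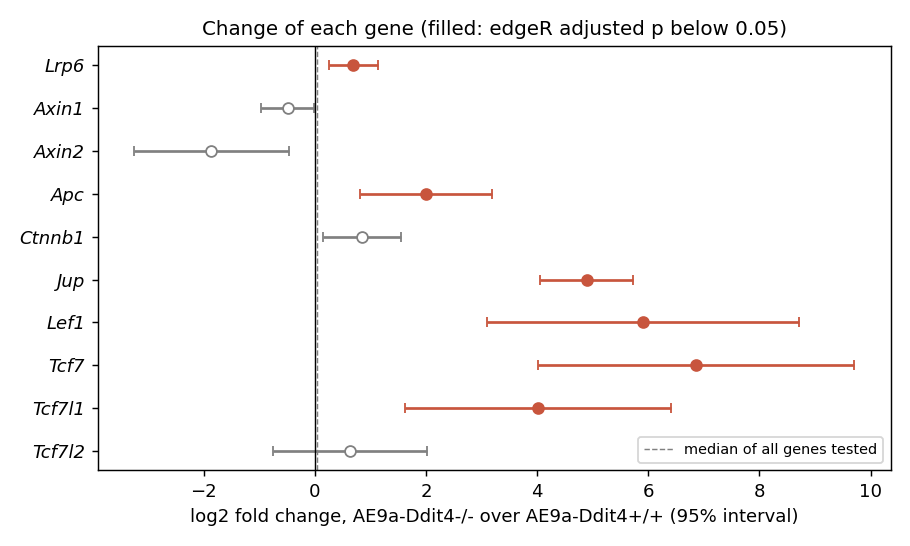
The log2 fold change of AE9a-Ddit4-/- over AE9a-Ddit4+/+ for each gene (x axis), with its 95% interval from the edgeR fit, unadjusted for the number of genes. Filled points passed the threshold. The estimates run from -1.86 for Axin2 to 6.86 for Tcf7, and the dashed line marks the median of all genes tested (0.04).

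Lrp6 (ENSMUSG00000030201, chromosome 6, 134446476 to 134566965, minus strand) encodes the co-receptor that passes the Wnt signal on to Axin. It was at 33.5, 39.9 and 31.7 CPM in AE9a-Ddit4+/+ libraries 1, 2 and 3, against 60.3, 56.8 and 52.8 CPM in AE9a-Ddit4-/- cells. The groups did not overlap, and their spread was small beside the difference. Lrp6 rose by 0.69 on the log2 scale (SE 0.19, edgeR adjusted p 0.0289). This modest change missed the threshold when AE9a-Ddit4+/+ library 1 or 3 was left out (edgeR adjusted p 0.0856 and 0.105), or any one of the AE9a-Ddit4-/- libraries (0.0746, 0.0870 and 0.0692), while its size stayed between 0.62 and 0.80.

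Of the destruction complex genes, Apc rose past the threshold, while Axin1 and Axin2 had lower values that missed it. No test compared Apc with the Axin genes. Apc (ENSMUSG00000005871, chromosome 18, 34220924 to 34322552, plus strand) encodes the scaffold that is lost in many colon tumors. Its levels were 27.2, 28.5 and 12.2 CPM in AE9a-Ddit4+/+ and 127, 37.0 and 107 CPM in AE9a-Ddit4-/- libraries. AE9a-Ddit4-/- library 2 stood closer to the AE9a-Ddit4+/+ libraries than to the other two of its group, although the groups did not overlap. Apc rose by 2.0 on the log2 scale (SE 0.51, edgeR adjusted p 0.0235). It missed the threshold when AE9a-Ddit4+/+ library 1 or 3 was left out (2.15 and 1.69, edgeR adjusted p 0.0560 and 0.0669), and likewise for AE9a-Ddit4-/- library 1 or 3 (1.68 and 1.80, edgeR adjusted p 0.0781 and 0.0641).

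Axin1 (ENSMUSG00000024182, chromosome 17, 26138688 to 26195811, plus strand), the constitutive scaffold of the complex, was at 134, 149 and 97.9 CPM in AE9a-Ddit4+/+ libraries. The AE9a-Ddit4-/- libraries lay just below, at 94.8, 90.0 and 85.8 CPM. A change of -0.49 on the log2 scale missed the threshold (SE 0.20, edgeR adjusted p 0.106), as it did in each of the 15 alternatives.

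Axin2 (ENSMUSG00000000142, chromosome 11, 108920349 to 108950783, plus strand) is both an inhibitor of the pathway and one of its best known target genes. Its levels were 7.36, 9.81 and 3.91 CPM in AE9a-Ddit4+/+ and 2.76, 0.724 and 2.31 CPM in AE9a-Ddit4-/- libraries. All 3 AE9a-Ddit4-/- libraries were below the lowest AE9a-Ddit4+/+ library, and AE9a-Ddit4-/- library 2 was the lowest of all. Axin2 thus differed by -1.86 on the log2 scale (SE 0.60, edgeR adjusted p 0.0518), on the edge of the threshold. It passed with DESeq2, with limma-voom, with mitochondrial genes removed and with counts divided by 4 (adjusted p 0.00501, 0.0354, 0.0495 and 0.0400), and over 15 alternatives the adjusted p ranged from 0.00501 to 0.144. Axin2 overlaps the antisense gene Gm11670 over 209 exonic bases. Whether strand was used in counting is unknown, so reads from that stretch could belong to either gene. The log2 ratio of Axin2 to Axin1 per length was -4.71, -4.45 and -5.17 in AE9a-Ddit4+/+ and -5.63, -7.48 and -5.74 in AE9a-Ddit4-/- libraries, a difference of -1.51 (exact permutation test, two-sided, p = 0.1, the smallest that 3 against 3 libraries allow). Without AE9a-Ddit4-/- library 2 the difference was -0.91.

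The start sites of Axin2 and Jup are shown because these genes are a known pathway target and the catenin that rose. Promoter sequences from RefSeq (GRCm38.p6) were used for 7 of the 10 genes, with 13 start sites among them, and those of Axin1, Apc and Lrp6 were not analysed here. The 250 bases before each start were searched on both strands for the LEF/TCF words CTTTGAT and CTTTGAA and for the RUNX words TGTGGT and TGCGGT, the latter because AE9a keeps the DNA-binding part of AML1 (Runx1). None of the 13 windows held a word of either kind, against 7.48% and 18.6% of all 32817 such windows, which says only that these letters are not in these stretches. The windows of Axin2 (chr11:108920099-108920348, plus strand) and Jup (chr11:100397791-100398040, minus strand) are printed 5′ to 3′ in lower case, without capitals as there was no match.
Axin2: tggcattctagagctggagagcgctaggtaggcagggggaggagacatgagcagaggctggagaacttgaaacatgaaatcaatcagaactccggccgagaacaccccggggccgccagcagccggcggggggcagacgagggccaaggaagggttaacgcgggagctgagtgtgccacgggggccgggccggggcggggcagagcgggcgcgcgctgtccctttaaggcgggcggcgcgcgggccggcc
Jup: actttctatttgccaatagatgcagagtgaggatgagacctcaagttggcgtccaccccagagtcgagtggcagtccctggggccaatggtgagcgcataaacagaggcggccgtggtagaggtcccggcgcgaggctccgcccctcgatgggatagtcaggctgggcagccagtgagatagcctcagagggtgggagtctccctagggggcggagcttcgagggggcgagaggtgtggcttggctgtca

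Ctnnb1 (ENSMUSG00000006932, chromosome 9, 120929216 to 120960507, plus strand), the gene of beta-catenin, was at 197, 238 and 172 CPM in AE9a-Ddit4+/+ cells. Its AE9a-Ddit4-/- values were 224, 496 and 376 CPM. Libraries 2 and 3 of AE9a-Ddit4-/- lay above all others, but library 1 fell inside the AE9a-Ddit4+/+ range. Its change of 0.85 on the log2 scale missed the threshold (SE 0.30, 95% interval 0.15 to 1.55 unadjusted, edgeR adjusted p 0.0693). It passed in 1 of 15 alternatives, without AE9a-Ddit4-/- library 1, at 1.11 (edgeR adjusted p 0.0213). Exons of Ctnnb1 overlap the gene Ulk4 on the other strand over 759 bases.

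Jup (ENSMUSG00000001552, chromosome 11, 100368958 to 100397763, minus strand), the gene of plakoglobin, had the smallest adjusted p of the 10 genes. It was at 2.78, 1.35 and 2.01 CPM in AE9a-Ddit4+/+ and at 68.7, 47.5 and 66.2 CPM in AE9a-Ddit4-/- libraries. The lowest AE9a-Ddit4-/- library was far above the highest AE9a-Ddit4+/+ library, with means of 2.05 ± 0.716 and 60.8 ± 11.6 CPM (SD, n = 3 each). Jup rose by 4.89 on the log2 scale (SE 0.36, edgeR adjusted p 0.000293), which stayed between 4.66 and 5.17 and past the threshold in 15 of 15 alternatives.

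The balance of the 2 catenin genes was compared per length. Divided by exon length, Jup made up 1.13, 0.457 and 0.933% of the sum of Jup and Ctnnb1 in AE9a-Ddit4+/+ libraries and 19.9, 7.16 and 12.4% in AE9a-Ddit4-/- libraries. The groups did not overlap. The log2 ratio of Jup to Ctnnb1 was -6.98 ± 0.69 and -2.84 ± 0.84 (SD, n = 3 each), a difference of 4.14 (exact permutation test, two-sided, p = 0.1, the smallest possible). Ctnnb1 remained the more abundant catenin in all 6 libraries.

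The products of the LEF/TCF genes bring catenins to DNA. In AE9a-Ddit4+/+ cells Tcf7l2 had 106, 91 and 38 counts, and the other 3 genes had from 0 to 34 counts in a library. The limit of detection was set at 12 counts, which is 0.163 to 0.197 CPM and covers counting error only. Tcf7, Lef1 and Tcf7l1 rose past the threshold, and Tcf7l2 did not.

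Tcf7 (ENSMUSG00000000782, chromosome 11, 52252371 to 52283014, minus strand) encodes TCF1, a factor of T cells and blood stem cells. It had 4, 34 and 0 counts in AE9a-Ddit4+/+ libraries, or 0.0633, 0.501 and 0 CPM, and 29.2, 10.8 and 26.9 CPM in AE9a-Ddit4-/- libraries. AE9a-Ddit4-/- library 2 was the lowest of its group and still far above the AE9a-Ddit4+/+ libraries. This is an increase of 6.86 on the log2 scale (SE 1.22, edgeR adjusted p 0.00595). As most AE9a-Ddit4+/+ reads of Tcf7 came from library 2, the estimate was 9.39 without it (edgeR adjusted p 0.00156), and Tcf7 passed in 14 of the 14 alternatives in which it could be tested.

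Lef1 (ENSMUSG00000027985, chromosome 3, 131110471 to 131224356, plus strand) encodes the founding member of the family, a factor of early B and T cells. It had 4, 3 and 0 counts in AE9a-Ddit4+/+ and 292, 32 and 113 counts in AE9a-Ddit4-/- libraries, the latter being 4.69, 0.526 and 1.54 CPM. All AE9a-Ddit4+/+ libraries were under the limit of detection, and the AE9a-Ddit4-/- libraries spread widely, with library 2 the lowest. Over the summed counts of each group, scaled to library size, the ratio was 62.1 with a 95% counting interval of 29.9 to 155. If each fragment had been counted 4 times, the ratio would be 54.3 with an interval of 14.7 to 454. Both intervals cover counting error only and leave out the spread between libraries. The edgeR fit gave a log2 fold change of 5.90 (SE 1.20, 95% interval 3.10 to 8.70 unadjusted, adjusted p 0.00985), a size that depends on the prior count. This estimate became 4.78 when AE9a-Ddit4-/- library 1 was left out and 6.53 when AE9a-Ddit4+/+ library 1 was (edgeR adjusted p 0.0346 and 0.0298). Lef1 passed in 13 of the 13 alternatives in which it could be tested. Its exons overlap the antisense gene Gm43352 over 1208 bases.

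Tcf7l1 (ENSMUSG00000055799, chromosome 6, 72626378 to 72789254, minus strand) encodes TCF3, which mostly acts as a repressor. It had 4, 13 and 0 counts in AE9a-Ddit4+/+ cells and 1.40, 1.27 and 1.56 CPM in AE9a-Ddit4-/- cells, values that were much alike. Tcf7l1 rose by 4.01 on the log2 scale (SE 1.02, edgeR adjusted p 0.0234), and by 5.40 without AE9a-Ddit4+/+ library 2 (edgeR adjusted p 0.0127). It missed the threshold when AE9a-Ddit4+/+ library 1 was left out (3.84, edgeR adjusted p 0.0760), or any one of the AE9a-Ddit4-/- libraries (4.02, 4.05 and 3.90, edgeR adjusted p 0.0631, 0.0506 and 0.0617). The antisense gene Gm15401 overlaps it over 179 exonic bases.

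Tcf7l2 (ENSMUSG00000024985, chromosome 19, 55741820 to 55933654, plus strand) encodes TCF4, the main factor of the family in gut epithelium. It was at 1.68, 1.34 and 0.588 CPM in AE9a-Ddit4+/+ and at 2.47, 0.888 and 2.22 CPM in AE9a-Ddit4-/- libraries. The groups overlapped, and a change of 0.63 on the log2 scale did not pass (SE 0.59, 95% interval -0.75 to 2.01, edgeR adjusted p 0.461), nor did it in any of 15 alternatives.

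The make-up of the family was then compared. Divided by exon length, the 4 genes summed to 0.239, 0.397 and 0.0670 CPM per kb in AE9a-Ddit4+/+ and to 12.3, 4.61 and 11.1 CPM per kb in AE9a-Ddit4-/- libraries. Tcf7 was 90.5, 89.5 and 92.6% of this sum in AE9a-Ddit4-/- libraries, and 10.1, 48.0 and 0% in AE9a-Ddit4+/+ libraries. Tcf7l2 took 2.29, 2.19 and 2.28% in AE9a-Ddit4-/- and 80.1, 38.4 and 100% in AE9a-Ddit4+/+ libraries. The groups did not overlap in either share (exact permutation test, two-sided, p = 0.1 for each, the smallest possible), and the AE9a-Ddit4+/+ shares rest on few counts. Both shares are parts of the same sum and are not separate results. Tcf7 had passed the filter on low counts only through the AE9a-Ddit4-/- libraries, so the shares are a description. The shares of Lef1 and Tcf7l1 overlapped (exact permutation test, p = 0.5 and 0.7). The summed level of AE9a-Ddit4-/- library 2 was below that of libraries 1 and 3. As Tcf7 made up most of each sum in this group, its nearly constant share says little beyond that.

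**Figure D3:**
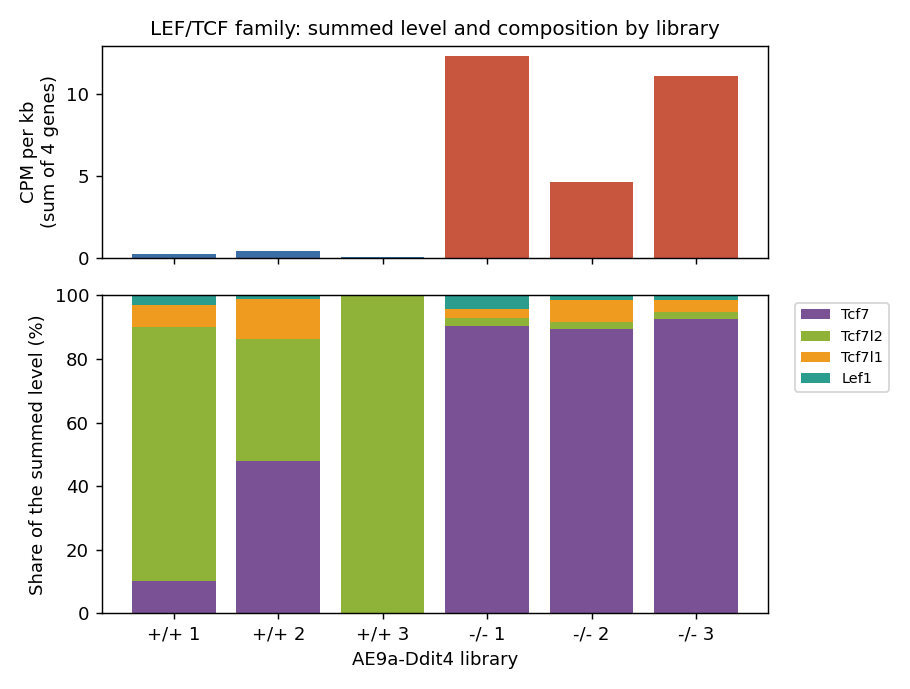
Summed level of Lef1, Tcf7, Tcf7l1 and Tcf7l2 in CPM per kb of exon (upper bars, y axis from 0) and the share of each gene in that sum in percent (lower bars) for the 3 AE9a-Ddit4+/+ and 3 AE9a-Ddit4-/- libraries. Tcf7 takes 89.5 to 92.6% in the AE9a-Ddit4-/- libraries and 0 to 48.0% in the AE9a-Ddit4+/+ libraries, whose sums stay at or below 0.397 CPM per kb.

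The order of the 10 genes by level per length also differed. In AE9a-Ddit4+/+ cells Ctnnb1 (39.0 ± 6.42 CPM per kb) and Axin1 (33.1 ± 6.83) led, with ranges that overlapped, followed by Lrp6 (2.56 ± 0.316). Apc (1.40 ± 0.562) and Axin2 (1.28 ± 0.538) overlapped each other, and Jup (0.319 ± 0.111) lay above Tcf7l2 (0.137 ± 0.0636) and the other LEF/TCF genes. In AE9a-Ddit4-/- cells Ctnnb1 (70.4 ± 26.3 CPM per kb) led Axin1 (23.6 ± 1.17), and Jup (9.44 ± 1.80), Tcf7 (8.51 ± 3.82), Apc (5.61 ± 2.93) and Lrp6 (4.14 ± 0.276) came next. Among these 4 only Jup and Lrp6 did not overlap. Tcf7l1 (0.359 ± 0.0378), Axin2 (0.351 ± 0.194) and Lef1 (0.256 ± 0.247) were lowest together with Tcf7l2 (0.212 ± 0.0969), and of these only Tcf7l1 and Tcf7l2 did not overlap (SD, n = 3 in each case).

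Markers of T cells moved with several of these genes. Of 15 T cell markers, 14 were higher past the threshold in AE9a-Ddit4-/- libraries (93.3%, against 19.4% of all genes tested). Their summed level was 3.23 to 5.27 CPM in AE9a-Ddit4+/+ libraries, with Cd8b1, Bcl11b and Trac at 0, and 140, 49.7 and 104 CPM in AE9a-Ddit4-/- libraries 1, 2 and 3. Library 2 of AE9a-Ddit4-/- was thus also the lowest of its group in T cell markers, and the ratio of its level to the mean of libraries 1 and 3 was below 1 in 15 of 15 markers (median 0.294, range 0.121 to 0.670). The same ratio was 0.169 for Lef1, 0.317 for Apc, 0.379 for Tcf7l2 and 0.386 for Tcf7. For Axin2, which had lower values in AE9a-Ddit4-/- libraries, it was 0.285. It was 0.704 for Jup, 0.856 for Tcf7l1, 0.997 for Axin1, 1.01 for Lrp6 and 1.66 for Ctnnb1, all above the range of the markers. Per 100 CPM of summed T cell markers, Tcf7 was at 20.9, 21.8 and 25.9 CPM in AE9a-Ddit4-/- and at 1.34, 9.50 and 0 CPM in AE9a-Ddit4+/+ libraries. Lef1 on this scale was at 3.35, 1.06 and 1.48 CPM in AE9a-Ddit4-/- and at 1.34, 0.838 and 0 CPM in AE9a-Ddit4+/+ libraries. In AE9a-Ddit4+/+ libraries 1, 2 and 3 the Tcf7 ratios rest on 4, 34 and 0 counts. Those of Lef1 rest on 4, 3 and 0 counts, all under the limit of detection. As the marker sums were low there too, the ratios are a description, and their difference between the genotypes was not tested. Library 2 of AE9a-Ddit4-/- was low in other markers too. Erythroid marker sums in AE9a-Ddit4-/- libraries 1, 2 and 3 were 544, 101 and 331 CPM. Neutrophil sums were 3374, 1530 and 4724 CPM, and monocyte sums 245, 120 and 430 CPM. B cell, natural killer cell and leukemic progenitor sums were also lowest in library 2. Megakaryocyte (2980 CPM) and endothelial and stromal sums (355 CPM) were highest there. The part of T cells in the levels of these genes was not tested.

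**Figure D4:**
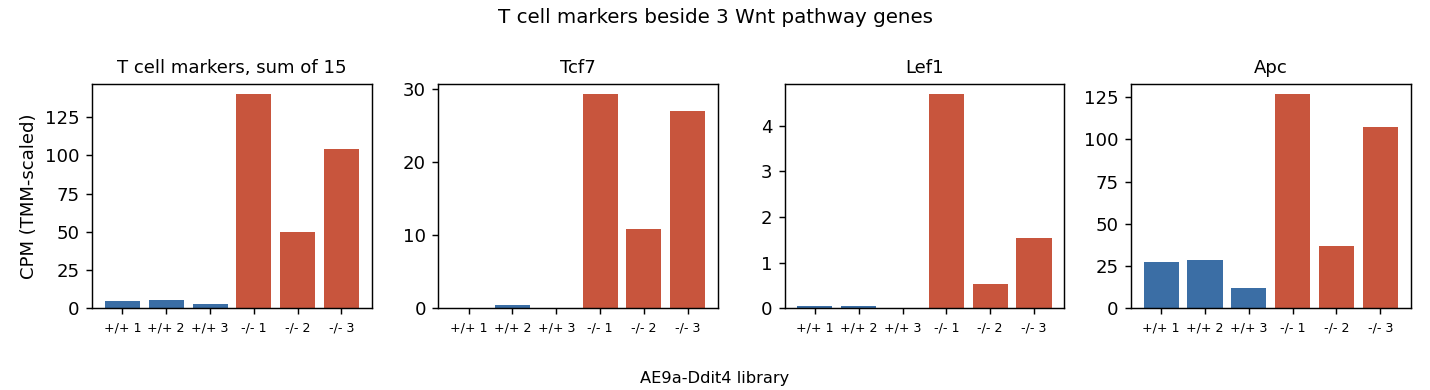
Summed level of 15 T cell markers and levels of Tcf7, Lef1 and Apc in CPM (y axes from 0) in the 3 AE9a-Ddit4+/+ (blue) and 3 AE9a-Ddit4-/- (red) libraries. In each panel AE9a-Ddit4-/- library 2 is the lowest bar of its group, at 49.7 CPM for the markers and 10.8, 0.526 and 37.0 CPM for the genes.

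Other cell types could be read as well. For comparison, 19.4% of all genes tested were higher and 10.7% lower. B cell markers were higher in 7 of 8 tested genes, with a summed level of 1.05 to 5.24 CPM in AE9a-Ddit4+/+ and 69.5 to 136 CPM in AE9a-Ddit4-/- libraries (Ms4a1, Rag1 and Rag2 at 0 in AE9a-Ddit4+/+, Rag1 and Rag2 also in AE9a-Ddit4-/- libraries). Natural killer cell markers were higher in 6 of 7, with sums of 57.9 to 105 and 76.6 to 117 CPM that overlapped, and Ncr1 and Klrb1c at 0 in AE9a-Ddit4+/+ libraries. Endothelial and stromal markers, Cdh5 among them, were higher in 7 of 11, with sums of 6.97 to 12.5 and 349 to 355 CPM and Emcn at 0 in AE9a-Ddit4+/+ libraries. Megakaryocyte markers were higher in 6 of 8 and lower in 1 (106 to 170 and 2241 to 2980 CPM). Erythroid markers were lower in 8 of 9 (4991 to 10377 and 101 to 544 CPM), and neutrophil markers in 4 of 9 (6826 to 11079 and 1530 to 4724 CPM). Of 8 monocyte markers, 0 passed with edgeR (1 at an unadjusted p below 0.05, 1 with DESeq2 and 0 with limma-voom), with sums of 204 to 394 and 120 to 430 CPM. Markers of leukemic progenitors were higher in 5 of 7 (545 to 736 and 1948 to 2225 CPM). The part of these cell types in the results was not tested.

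The rest of the pathway was read from 7 lists, which held 131 genes without the 10, and 81 of them had enough counts to be tested. Of the 81 genes, 30 were higher and 5 lower past the threshold (edgeR), which is 43.2% against 30.1% of all genes tested, with a median log2 fold change of 0.59. Without AE9a-Ddit4-/- library 1 the numbers were 18 and 4. The number higher ranged from 1 of 6 ligand genes to 10 of 14 receptor genes. Of the tested list genes, 8 were at or under the limit of detection in all AE9a-Ddit4+/+ libraries, and all 8 are among those called, having passed the filter through the AE9a-Ddit4-/- libraries.

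Ligand genes were hardly read. Of 21 genes for Wnt ligands and their secretion, 13 were at or under the limit of detection in every library, and 6 could be tested. Wls, which carries Wnt proteins to the cell surface, was the highest per length and the only one past the threshold, with 11.5, 25.7 and 7.16 CPM in AE9a-Ddit4+/+ and 39.4, 47.4 and 42.4 CPM in AE9a-Ddit4-/- cells (log2 change 1.54, SE 0.45, edgeR adjusted p 0.0370).

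Receptor genes were higher in 10 of 14 tested (71.4%, against 19.4% of all genes tested). The median log2 fold change was 2.59 (2.23 when unread genes are set to their lower bounds), and all 14 estimates were above 0. Of those called, Fzd2, Fzd6, Fzd8, Fzd9 and Ror1 were at or under the limit of detection in all AE9a-Ddit4+/+ libraries. They passed the filter only through the AE9a-Ddit4-/- libraries and could hardly come out lower, so these numbers are a description. Fzd8, a Frizzled receptor, had 0, 0 and 5 counts in AE9a-Ddit4+/+ and 1394, 924 and 541 counts in AE9a-Ddit4-/- libraries (edgeR adjusted p 0.00147). Ptk7, a Wnt co-receptor without kinase activity and the highest of the list per length in AE9a-Ddit4-/- cells (Fzd7 was in AE9a-Ddit4+/+ cells), went from 0.427, 1.87 and 0.263 CPM to 45.8, 57.8 and 49.98 CPM (log2 change 5.90, SE 0.77, edgeR adjusted p 0.00189). Ror1, a receptor of Wnt5a, was at 0 to 0.0633 CPM in AE9a-Ddit4+/+ and at 1.70, 1.18 and 0.380 CPM in AE9a-Ddit4-/- libraries (edgeR adjusted p 0.0148). Each of these had groups that did not overlap.

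Inhibitor genes went both ways, with 5 of 9 higher and 1 lower (66.7% called, against 30.1% of all genes tested). Sfrp4, which binds Wnt ligands outside the cell, fell from 161, 51.1 and 104 CPM to 0.257, 0.148 and 0 CPM (log2 change -9.63, SE 0.97, edgeR adjusted p 0.000775) and was the highest of the list per length in AE9a-Ddit4+/+ cells, where Kremen1 was in AE9a-Ddit4-/- cells. Frzb, of the same family, had 0 counts in each AE9a-Ddit4+/+ library and 4.49, 2.06 and 2.02 CPM in AE9a-Ddit4-/- cells, at least 15.5-fold higher against the limit of 12 counts per library (edgeR adjusted p 0.00195). Dkk3 was at 0 to 0.0619 CPM and 1.93 to 3.09 CPM (edgeR adjusted p 0.00429), and Draxin, an inhibitor of Lrp6, at 0 to 0.506 and 6.13 to 11.98 CPM (log2 change 5.45, SE 1.24, edgeR adjusted p 0.0153).

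Inside the cell most genes did not pass. Of 19 Dishevelled and destruction complex partners, 3 were higher and 1 lower, with a median log2 fold change of -0.01. The share called was 21.1%, against 30.1% of all genes tested. Nkd1, a Dishevelled antagonist, was at 0 to 0.190 CPM in AE9a-Ddit4+/+ and 1.596 to 4.36 CPM in AE9a-Ddit4-/- libraries (edgeR adjusted p 0.0180). Apc2, the relative of Apc, was at 0.649 to 1.61 CPM in AE9a-Ddit4+/+ and 10.99 to 13.9 CPM in AE9a-Ddit4-/- cells (log2 change 3.39, SE 0.44, edgeR adjusted p 0.00179). The kinase genes Csnk1e and Csnk1d changed in opposite directions, by 1.47 and -0.51 on the log2 scale (SE 0.21 and 0.15, edgeR adjusted p 0.00237 and 0.0378), and Csnk1d, at 328 to 346 and 233 to 241 CPM, was the highest of the list per length.

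Of 18 nuclear cofactors, 4 were higher and 2 lower, with a median of 0.08. The share called was 33.3%, near the 30.1% of all genes tested. The higher ones included Bcl9 and Bcl9l, which tie beta-catenin to its coactivators, with log2 fold changes of 4.52 and 2.88 (SE 0.68 and 0.40, edgeR adjusted p 0.00321 and 0.00248). Tle2 and Tle1, corepressors of the Groucho family that bind LEF/TCF factors, went in opposite directions. Tle2 was at 0.139 to 0.663 CPM in AE9a-Ddit4+/+ and 13.0 to 23.4 CPM in AE9a-Ddit4-/- libraries (5.48, SE 0.64, edgeR adjusted p 0.00127), and Tle1 at 25.4 to 32.4 and 3.44 to 5.84 CPM (-2.70, SE 0.31, edgeR adjusted p 0.00108). Ctbp1, a corepressor and the highest of the list per length, was lower by -0.999 on the log2 scale (SE 0.17, edgeR adjusted p 0.00459).

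Of 10 Wnt target genes tested, 4 were higher (40%, against 19.4% of all genes tested), and Axin2 itself is not counted among them. Myc, the highest per length in AE9a-Ddit4-/- cells (Cd44 was in AE9a-Ddit4+/+ cells), went from 41.6, 30.6 and 51.5 CPM to 110, 170 and 184 CPM (log2 change 1.91, SE 0.28, edgeR adjusted p 0.00302). Ccnd1, which encodes cyclin D1, was at 1.06 to 3.29 and 6.08 to 12.4 CPM (2.16, SE 0.53, edgeR adjusted p 0.0197). Znrf3, a membrane ubiquitin ligase that removes Frizzled, was at 0.170 to 0.585 and 2.22 to 2.81 CPM (2.84, SE 0.57, edgeR adjusted p 0.00915), and Nkd1, given above, is the fourth. Lgr5, Sp5 and Mmp7 had 0 counts in all 6 libraries, and Rnf43, Cd44, Bambi, Ascl2, Apcdd1 and Fzd7 did not pass.

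Of 10 other catenin, cadherin and desmosome genes tested, 5 were higher and 1 lower (60% called, against 30.1% of all genes tested). Ctnna1, the gene of alpha-catenin that links beta-catenin and plakoglobin to actin, was at 160, 135 and 117 CPM in AE9a-Ddit4+/+ and at 39.6, 29.6 and 35.4 CPM in AE9a-Ddit4-/- libraries (log2 change -1.98, SE 0.21, edgeR adjusted p 0.000869). Its direction was opposite to that of Jup. Perp, a desmosome gene and the highest of the list per length in AE9a-Ddit4-/- cells (Ctnna1 was in AE9a-Ddit4+/+ cells), was at 1.58 to 4.73 CPM in AE9a-Ddit4+/+ and 66.7 to 265 CPM in AE9a-Ddit4-/- cells (5.50, SE 0.67, edgeR adjusted p 0.00145). Cdh5, the cadherin of endothelium, was at 0.236 to 0.526 and 4.47 to 9.67 CPM (3.99, SE 0.54, edgeR adjusted p 0.00212), and Pkp4, a relative of the catenins, had a change of 2.05 (SE 0.61, edgeR adjusted p 0.0392). Among desmosomal genes, the plakophilin gene Pkp3 was at 7.57 to 14.98 CPM in AE9a-Ddit4+/+ and 8.54 to 9.70 CPM in AE9a-Ddit4-/- cells and did not pass. Dsg1a, Dsg2, Dsc2 and Dsc3 had 0 counts in all 6 libraries, and Dsp was at most at 0.790 CPM.

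**Figure D5:**
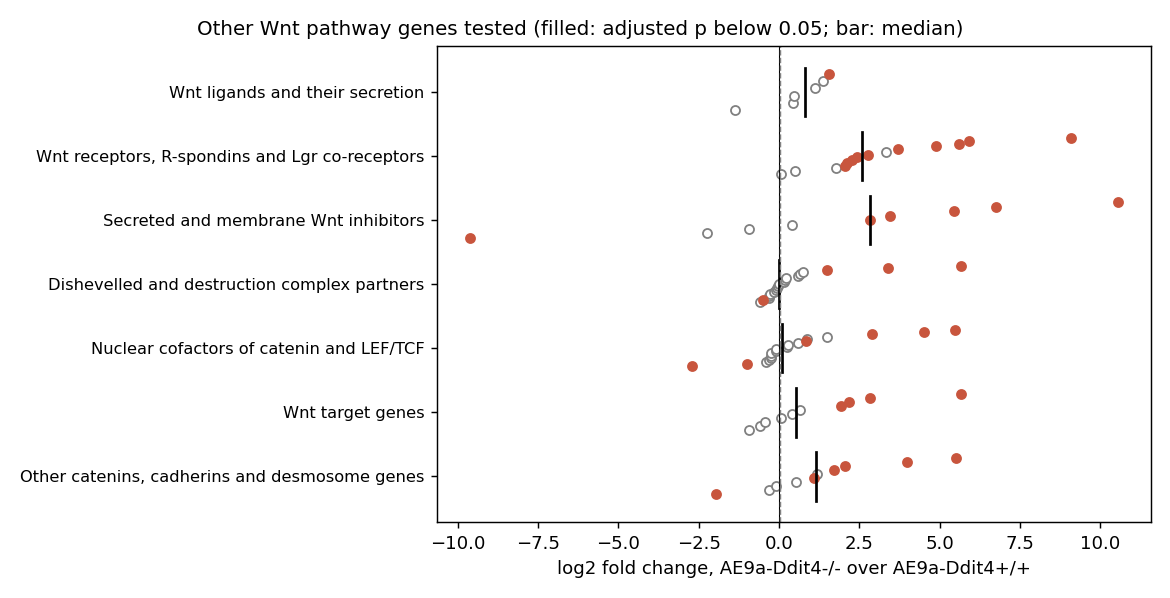
The log2 fold change of AE9a-Ddit4-/- over AE9a-Ddit4+/+ (x axis) for each tested gene of the 7 Wnt pathway lists (rows), without the 10 genes themselves. Filled points passed the threshold (edgeR), black bars are medians and the dashed line is the median of all genes tested, and a gene of 2 lists is drawn in both. Receptor genes have 10 of 14 filled points, all to the right of 0, and some of these passed the filter only through the AE9a-Ddit4-/- libraries. Fitted values of genes unread in AE9a-Ddit4+/+ cells depend on the prior count.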

How the data were processed

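Bulk RNA-seq had been done on 6 libraries of AE9a leukemia cells, 3 of each Ddit4 genotype, which the sample titles give. The authors deposited 1 table of raw counts per gene, whole numbers that were not normalized. The submitters' processing notes name GRCm38 and mm10, and the aligner, the counting tool and the use of strand are not given in the sources used here. The kit is an mRNA kit per the labels and one for RNA freed of rRNA per the methods. Low counts were 1.40 to 1.62 times as frequent at multiples of 4 as at the even numbers between, so that some fragments may have been counted about 4 times, and the limit of detection was set at 12 counts (3 such fragments).

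All genes were fitted together with edgeR 4.0.16 in R 4.3.3, using its quasi-likelihood test (filterByExpr, TMM scaling, robust estimation, genotype as the only term). P values were adjusted over 18375 genes with the Benjamini-Hochberg method, and the threshold was 0.05. SE is the log2 fold change over the square root of F, and CPM used TMM-scaled totals. The fit was tested on simulated data. Positions and exon lengths (union of exons) came from GENCODE M21 (GRCm38), which held 55240 of 55421 identifiers. Levels per length do not account for which transcript forms were present. Shares and ratios were compared with an exact permutation test over libraries. Alternatives used DESeq2 1.42.0, limma-voom (limma 3.58.1), other scalings and filters, mitochondrial genes removed, counts divided by 4, a replicate block, an adjusted p below 0.01, and each library left out.

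The 10 genes and all lists were chosen with earlier results of these data known. From each of the 7 Wnt lists, the text names the 3 genes with the largest change past the threshold in each direction and the gene with the highest level per length, taken over both genotypes together. A few further genes (Lgr5, Sp5, Mmp7, Rnf43, Cd44, Bambi, Ascl2, Apcdd1, Fzd7, Kremen1, Dsp, Pkp3 and the genes of desmosomal cadherins) were named after their values were seen. Protein sequences were not analysed here, and the value of 1 megakaryocyte marker is not reported here.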

Additional observations from a re-analysis of the deposited data

How the results depend on the processing

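Of the 10 genes, 3 (Jup, Apc and Lrp6) were past the threshold, all higher, when 10 counts were required in every library, where Lef1, Tcf7 and Tcf7l1 could not be tested. With the replicate block and with an adjusted p below 0.01 there were also 3 (Jup, Lef1 and Tcf7), and 3 to 6, all higher, with a library left out. DESeq2, limma-voom, mitochondrial genes removed and counts divided by 4 each added 1 lower gene, Axin2. With counts divided by 4, Lef1 could not be tested and 5 genes were higher. Over all genes tested, 5535 were called, 2964 with the replicate block, 2676 with an adjusted p below 0.01, 3840 to 6021 with a library left out and 7040 with DESeq2. The replicate numbers did not pair the libraries (correlations of same-numbered libraries -0.17, -0.19 and -0.05 across genes), and no library correlated best with its own number in the other group. In the block, the sign-flip permutation p of the composition measures was 0.25, the smallest that 3 pairs allow, and 0.5 for the share of Tcf7l1. Of the list genes, 19 (15 higher) passed at an adjusted p below 0.01 and 22 to 40 with a library left out (18 to 35 higher, 4 to 5 lower), while 8 were lower with DESeq2 and 3 with 10 counts in every library. The share of Lef1 in its family differed by 0.975 percentage points between the genotypes, by 5.18 without division by gene length and by 0.00921 to 1.77 with a library left out. That of Tcf7l1 differed by -1.85, by 1.77 without this division, and by -5.03 to 1.11 with a library left out, with 1.11 without AE9a-Ddit4+/+ library 2. The causes were not tested. No direction of the 10 genes turned in these alternatives, in which the fitted change of Tcf7 ranged from 6.28 to 9.39, that of Tcf7l1 from 3.44 to 5.40 and that of Lef1 from 4.78 to 6.53. The counts of Lef1, Tcf7 and Tcf7l1 in AE9a-Ddit4+/+ libraries are too few for a firm fold change. Where leaving out a library left 2 in a group, the spread was still estimated from both groups.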
